A study of Rattus norvegicus with 12 samples.

Results

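The 41 genes described here are myeloid and pan-leukocyte genes: surface proteins of white blood cells, the signalling and cytoskeletal proteins behind them, the subunits of the phagocyte NADPH oxidase, and a few lysosomal and enzyme genes of the same cells. They were chosen by name, and a gene counted as measured where the array held a probe set whose only gene symbol was that name. By this rule 32 of the 41 genes were measured, out of 10412 genes on the array, each through the probe set with the highest mean signal. The other 9 (Cd163, Mrc1, Adgre1, Itgb2, Msr1, Was, Hcls1, Ncf4 and Spi1) had no such probe set and were not analysed here. Expression was measured in rat heart ventricle with 1 array for each of 12 rats. The IR groups had ischaemia followed by reperfusion: the LAD, a coronary artery that feeds the front of the left ventricle, was occluded for 30 min and then released, and tissue was taken after 2 or 7 d. The 2 d sham and 7 d sham groups had no occlusion. Each of the 4 groups held 3 rats. Strain, age and sex of the rats, and whether the ischaemic zone was separated from the rest of the ventricle, were not stated in those sources that were used.

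Macrophages of the heart come from a resident pool that renews itself in the tissue and from blood monocytes that enter after injury, and neutrophils arrive before most monocytes. These cells sense microbes, antibodies and debris through surface receptors, many of which signal through small adaptor chains with tyrosine motifs. The chains recruit kinases and scaffold proteins that reshape actin and switch on the NADPH oxidase, an enzyme that makes superoxide in the phagosome. Most of the genes below are therefore read as white blood cell genes in a heart sample, in which much of the RNA comes from cardiomyocytes. In such a sample fewer cells of a type and less RNA per cell cannot be told apart, and the same holds for more of either.

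Values are signals on a linear scale, and a log2 change is a difference of log2(signal + 195), where 195 is a constant added to steady dim values; a fold taken from it understates the change of a dim gene. Of the probe sets, 10527 were bright enough to be tested, among them all 32 genes, and an adjusted p under 0.05 in limma over these 10527 was called. The brightness threshold was a signal of 448 to 515, depending on the array, to be exceeded on 3 or more arrays. Lcp2, Vav1 and Itgam exceeded it on IR arrays only, and Lilrb4 on the IR arrays and 7 d sham replicate 80. The IR groups, where their means are higher, thus carried these genes past the filter, and they stay in the counts below. An array stood apart in 2 groups. The 2 d IR array of replicate 69 was the highest of its group for 30 of the 32 genes, against 34.05% of all probe sets tested, and the 7 d sham array of replicate 82 was the lowest of its group for 28 of the 32, against 38.57%. Of 2 d IR arrays, the mean log2 level of the 32 genes was above that of the 2 d sham arrays by 1.33 for replicate 69, 0.61 for replicate 73 and 0.84 for replicate 76. The markers of cardiomyocytes moved the other way: their mean lay at -0.64, -0.19 and -0.27 on the same arrays. The part of either array in the results was tested only by leaving it out.

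At 2 d, 17 of the 32 genes rose and 0 fell, where 1.88% of all probe sets rose and 0.589% fell. Over all probe sets this was 198 higher and 62 lower, which became 164 and 92 with each array centred on its median, where 17 of the 32 genes were called too. The median change of the 32 was 0.92, against 0.00 over all probe sets, and 31 of the 32 changes were above 0. All 3 IR arrays lay above all 3 sham arrays for 22 genes, which held for 13.9% of all probe sets. At 7 d, 14 of the 32 rose and 0 fell, where 6.22% of all probe sets rose and 5.85% fell. The median change was 0.72, against 0.01 over all probe sets, and the IR arrays lay above the sham arrays for 23 genes, against 16.6% of all probe sets. On neither day was any of the 32 lower at an unadjusted p under 0.05 in limma (0 genes). In the average of both days, which uses all 12 arrays, 27 of the 32 rose, where 12.4% of all probe sets rose; the 5 others were Itgam, Fcgr3a, Ptpn6, Cybb and Ncf1. Single arrays decided the counts of each day. The count of 17 at 2 d became 1 when 2 d IR replicate 69 was left out, 1 for either of the 2 d sham replicates 71 and 72, 10 for sham replicate 74 and 11 for IR replicate 76. The count of 14 at 7 d became 0 when 7 d sham replicate 82 was left out, 5 for 7 d IR replicate 44 and 6 for 7 d IR replicate 47. Calls over all probe sets fell with them. At 2 d 260 in either direction became 2 without replicate 69, 71 or 72, 100 without 74 and 147 without 76. At 7 d 1271 became 175 without replicate 82, 474 without 44 and 502 without 47. The changes themselves moved less: the median of the 32 was 0.73 at 2 d without replicate 69 and 0.54 at 7 d without replicate 82. The average of both days called 22 to 27 genes when any array was left out and 18 without replicates 69 and 82 together. Over all probe sets 14.9% to 23.2% and then 9.87% were called, in either direction.

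**Figure D1:**
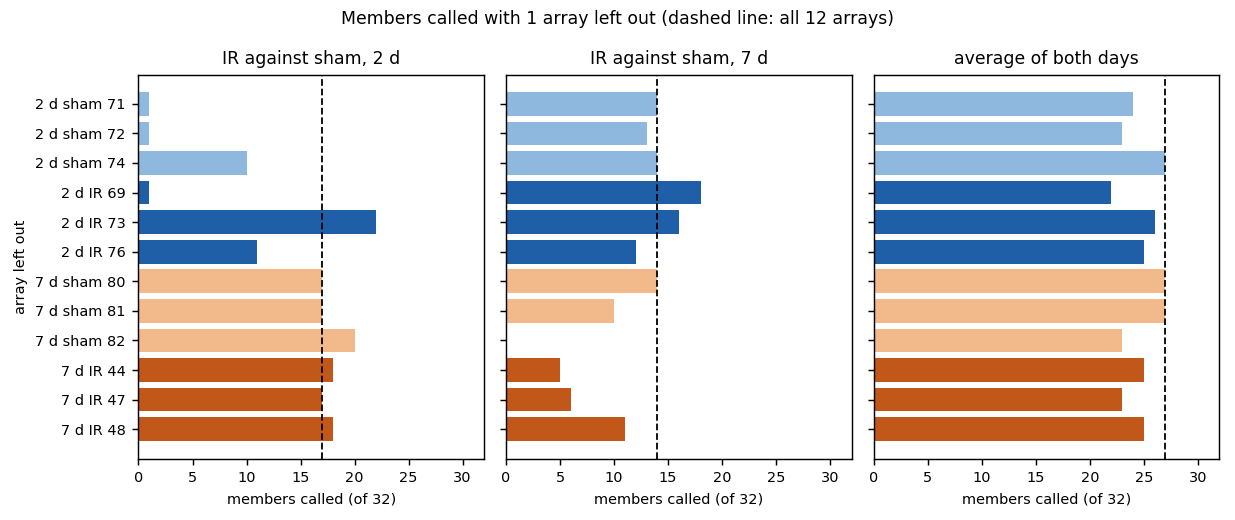
Number of the 32 genes called (horizontal axis) when the array named at the left was left out, for IR against sham at 2 d, at 7 d and for the average of both days; the dashed line is the count with all 12 arrays (17, 14 and 27). At 2 d the bar falls to 1 without 2 d IR replicate 69 or 2 d sham replicate 71 or 72, at 7 d it falls to 0 without 7 d sham replicate 82, and in the average it stays between 22 and 27. In the same fits calls over all probe sets fall from 2.47% to 0.019% at 2 d and from 12.1% to 1.66% at 7 d.

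The genes divided by role in how many passed. Among surface proteins 9 of 15 rose at 2 d and 9 of 15 at 7 d, with median changes of 1.03 and 0.85. Among signalling and cytoskeletal proteins 4 of 10 rose at 2 d and 2 of 10 at 7 d (medians 0.85 and 0.47). Of the oxidase subunits 1 of 3 rose at 2 d and 0 of 3 at 7 d (medians 0.31 and 0.28). Of the lysosomal proteins and enzymes 3 of 4 rose on each day (medians 0.88 and 0.77). In the average of both days the counts were 13 of 15, 9 of 10, 1 of 3 and 4 of 4. Over all probe sets 1.88% rose at 2 d, 6.22% at 7 d and 12.4% in the average. The role counts are over different genes, and no test between the roles was made.

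**Figure D2:**
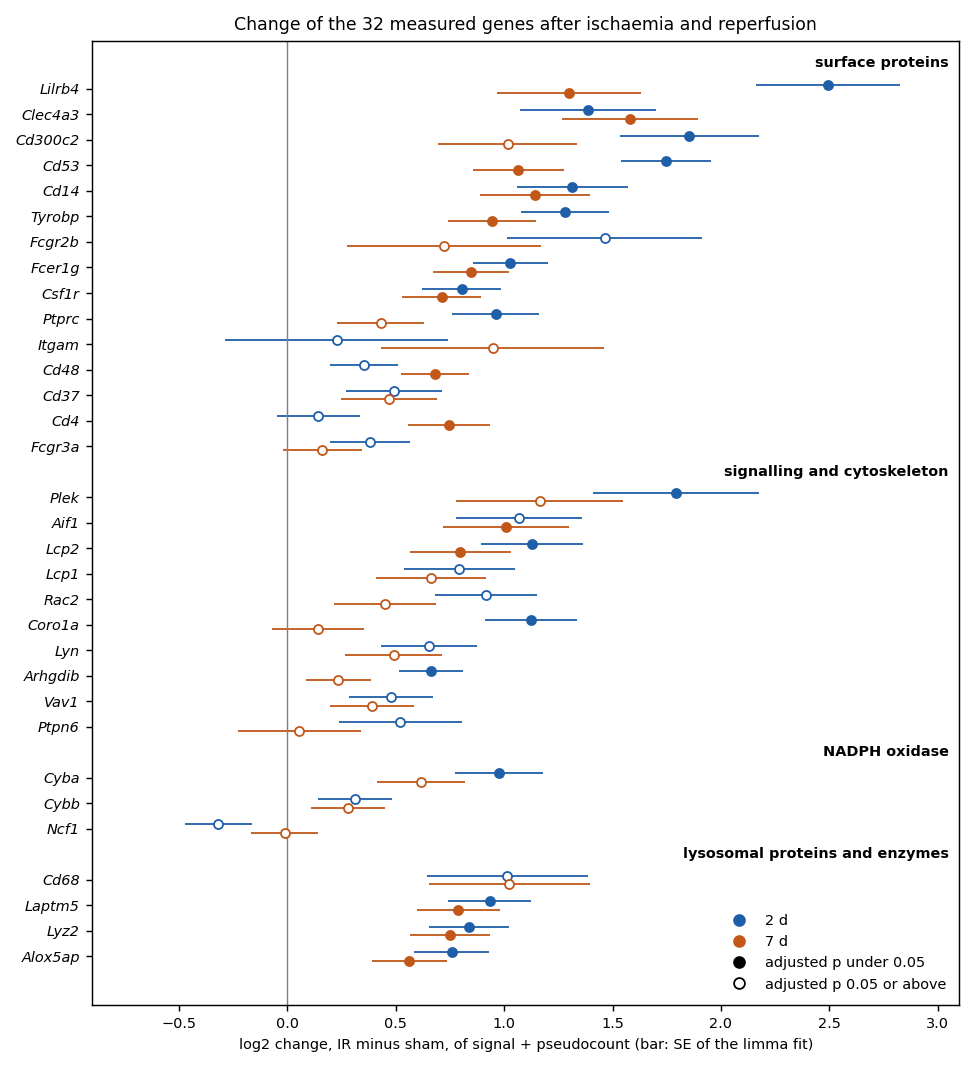
Log2 change between IR and sham hearts (horizontal axis, signal plus a constant) for each of the 32 genes, grouped by role, at 2 d in blue and 7 d in orange; bars are the standard error of the limma fit and filled points passed an adjusted p under 0.05. All points but those of Ncf1 lie to the right of 0, and the blue points lie farther right than the orange for 26 genes.

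Before their values, the stretches upstream of a few of these genes show a letter pattern that many of them share. GAGGAA is the core of the purine-rich box that PU.1 binds; PU.1 is the myeloid transcription factor encoded by Spi1, which was not measured. The pattern was searched on both strands (GAGGAA or TTCCTC) in the 250 bases before and the 50 after the RefSeq start, in build GRCr8. A promoter was at hand for 20 of the 32 genes. It held the pattern in 14 of the 20, or 70.0%, against 9239 of 33469 promoters of the same length, or 27.6%; 5 of the 14 held 2 matches. A second pattern, TGANTCA, the site of AP-1 factors, was in 2 of the 20 (10.0%) and in 7.33% of all promoters. Of the 14 genes with GAGGAA, 8 rose at 2 d and 7 at 7 d, and of the 6 without it (Cd300c2, Cd48, Coro1a, Ptpn6, Cyba and Ncf1) 3 rose at 2 d and 1 at 7 d. Over all probe sets 1.88% rose at 2 d and 6.22% at 7 d. A match is a description of letters and not a binding site, and it was not tested against the changes. The 250 bases before the start are given for 4 genes that rose on both days and for Coro1a, which rose at 2 d and has no match; these 5 were chosen after their values were seen. Capitals mark the pattern, and each runs 5' to 3' on the gene's strand, which is the minus strand for Cd53 (chr2:197087897-197088146), Lilrb4 (chr1:78853253-78853502), Lyz2 (chr7:54798012-54798261) and Coro1a (chr1:190731104-190731353) and the plus strand for Laptm5 (chr5:148371630-148371879). The first letter of the match lies 44 bases before the start in Cd53 (position -44), at -183 in Lilrb4, at -46 in Lyz2 and at -63 in Laptm5.
Cd53: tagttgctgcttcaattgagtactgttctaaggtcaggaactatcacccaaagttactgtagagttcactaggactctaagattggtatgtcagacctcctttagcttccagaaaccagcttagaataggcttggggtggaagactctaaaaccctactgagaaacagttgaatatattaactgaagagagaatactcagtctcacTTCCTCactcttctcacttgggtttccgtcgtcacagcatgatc
Lilrb4: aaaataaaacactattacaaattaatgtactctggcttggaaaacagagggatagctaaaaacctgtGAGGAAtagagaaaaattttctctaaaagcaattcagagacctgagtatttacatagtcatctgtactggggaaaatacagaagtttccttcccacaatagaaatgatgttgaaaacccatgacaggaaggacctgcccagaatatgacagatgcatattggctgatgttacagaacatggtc
Lyz2: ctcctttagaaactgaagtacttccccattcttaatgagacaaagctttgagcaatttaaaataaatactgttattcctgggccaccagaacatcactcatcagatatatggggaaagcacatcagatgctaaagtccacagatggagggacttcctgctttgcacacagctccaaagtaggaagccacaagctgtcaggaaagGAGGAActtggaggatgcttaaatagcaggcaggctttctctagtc
Laptm5: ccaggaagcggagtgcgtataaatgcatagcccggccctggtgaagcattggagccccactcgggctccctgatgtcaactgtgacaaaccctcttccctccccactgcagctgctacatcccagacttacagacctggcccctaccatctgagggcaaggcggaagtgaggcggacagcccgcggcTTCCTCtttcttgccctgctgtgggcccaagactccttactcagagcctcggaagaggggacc
Coro1a: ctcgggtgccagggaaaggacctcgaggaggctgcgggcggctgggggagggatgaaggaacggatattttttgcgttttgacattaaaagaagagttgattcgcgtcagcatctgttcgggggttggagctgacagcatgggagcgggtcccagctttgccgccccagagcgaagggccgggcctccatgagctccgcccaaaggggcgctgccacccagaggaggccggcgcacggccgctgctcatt

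The largest change of each day was that of a surface receptor, Lilrb4 at 2 d and Clec4a3 at 7 d. Large changes were not confined to receptors, as the signalling protein Plek had 1.79 and 1.16. Lilrb4, an immunoglobulin-like receptor that inhibits myeloid cells, had signals of 109.5, 126 and 266 in 2 d sham hearts and 2371, 1470.2 and 1692 in 2 d IR hearts (replicates in ascending order here and below). At 7 d they were 646, 114 and 90.8 in sham and 1003, 709 and 826 in IR hearts. The IR and sham arrays did not overlap on either day, but 7 d sham replicate 80 stood near the IR level. The log2 change was 2.49 (SE 0.33, adjusted p = 0.00791) at 2 d and 1.30 (SE 0.33, adjusted p = 0.0237) at 7 d; as most sham signals were below the added constant, the ratio of the mean signals was larger, at 11.0 and 2.98. Cd300c2, a receptor of the CD300 family, had 1246, 2146 and 2804 in 2 d sham, 10586, 5092 and 8191 in 2 d IR, 2967, 2432 and 1117 in 7 d sham and 4558, 4383 and 3949.9 in 7 d IR hearts. Its groups were apart on both days, and it passed at 2 d (1.85, SE 0.32, adjusted p = 0.0166) and not at 7 d (1.02, SE 0.32, adjusted p = 0.0518). Clec4a3, a C-type lectin receptor of monocytes and dendritic cells, had 432, 618 and 671 in 2 d sham, 3136, 1116 and 1610.4 in 2 d IR, 827, 1257 and 414 in 7 d sham and 3139, 2478 and 2515 in 7 d IR hearts. Again no sham array reached an IR array of its day, and the 3 IR arrays were closer together at 7 d. Its changes were 1.39 (SE 0.31, adjusted p = 0.0366) and 1.58 (SE 0.31, adjusted p = 0.00946), the largest of the 32 genes at 7 d.

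Cd14, the co-receptor for bacterial endotoxin, had signals of 936, 1010.1 and 1419.9 in 2 d sham and 4449, 2425 and 2588 in 2 d IR hearts, and 1235, 1207 and 721 in 7 d sham and 3565, 2330.0 and 1888 in 7 d IR hearts. The groups did not overlap, and it rose by 1.31 (SE 0.26, adjusted p = 0.0235) and 1.14 (SE 0.26, adjusted p = 0.0136). Cd53, a tetraspanin found across white blood cells, had 1581, 1376 and 1379.8 in 2 d sham, 7549, 4106 and 4796 in 2 d IR, 2341, 2671 and 1517 in 7 d sham and 5234, 4322 and 4447 in 7 d IR hearts. Its 2 d sham arrays were within a narrow band, and even the lowest IR array was far above it. It rose by 1.75 (SE 0.21, adjusted p = 0.00316) and 1.06 (SE 0.21, adjusted p = 0.00946), and it was the 1 gene of 17 to keep its 2 d call whichever array was left out; at 7 d it missed the threshold without 7 d sham replicate 82 (adjusted p = 0.0504). Csf1r, the receptor for macrophage colony-stimulating factor, on which most macrophages depend, had 2014, 1815 and 2193 in 2 d sham, 4778, 2959 and 3405 in 2 d IR, 3154, 2924 and 2128 in 7 d sham and 4269.5, 5451 and 4034 in 7 d IR hearts. Its rise was smaller, at 0.80 (SE 0.18, adjusted p = 0.0366) and 0.71 (SE 0.18, adjusted p = 0.0232), with no overlap of groups on either day.

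**Figure D3:**
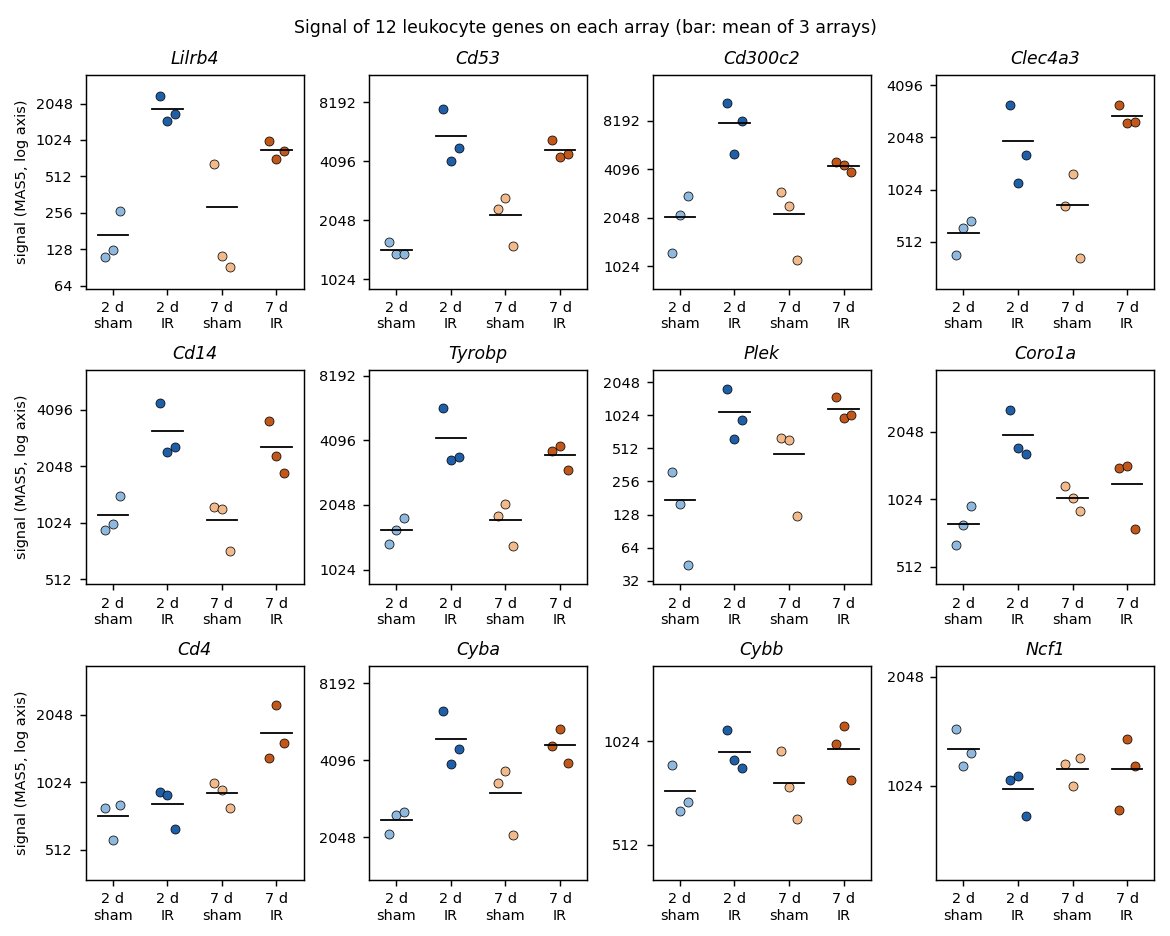
MAS5 signal (log axis, scale differing between panels) of 12 of the genes on each of the 12 arrays, with a bar at the mean of each group of 3. The IR points stand clear of the sham points of their day for Lilrb4, Cd53, Cd300c2, Clec4a3, Cd14 and Tyrobp, whereas those of Cybb overlap on both days and those of Ncf1 lie below sham at 2 d.

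Both adaptor chains measured rose on both days. Fcer1g, the signalling chain shared by activating Fc receptors, had 5824, 6626 and 8136 in 2 d sham, 18033, 11696 and 13208 in 2 d IR, 9255, 10511 and 7088 in 7 d sham and 17721, 15311 and 15253 in 7 d IR hearts. It rose by 1.03 (SE 0.17, adjusted p = 0.0163) and 0.85 (SE 0.17, adjusted p = 0.0107). Tyrobp, the adaptor also called DAP12, had 1341, 1567 and 1789.5 in 2 d sham, 5800.3, 3327 and 3439.5 in 2 d IR, 1824, 2072 and 1315 in 7 d sham and 3656, 3845 and 2979.5 in 7 d IR hearts. It rose by 1.28 (SE 0.20, adjusted p = 0.0132) and 0.95 (SE 0.20, adjusted p = 0.0122), and the groups of neither adaptor overlapped. Fcgr2b and Fcgr3a bind IgG on the cell surface. Fcgr2b, the inhibitory IgG receptor, ran from 276 to 505 in 2 d sham and from 909 to 2184 in 2 d IR hearts, but overlapped at 7 d, where sham signals were 307 to 1179 and IR signals 493 to 2470.0. Its change was 1.46 (SE 0.45) at 2 d and 0.72 (SE 0.45) at 7 d, neither past the threshold (adjusted p = 0.0852 and 0.316), and it passed in the average of both days (1.09, adjusted p = 0.0236), a call lost when replicate 44, 47, 69, 82, 71 or 72 was left out (highest adjusted p = 0.14 over the alternatives). Fcgr3a, an activating IgG receptor of monocytes and natural killer cells, had 595, 659 and 1089 in 2 d sham, 1329.8, 942 and 908 in 2 d IR, 1052, 1303 and 1040.0 in 7 d sham and 1396, 1214 and 1243 in 7 d IR hearts. The groups overlapped on both days, and its changes of 0.38 (SE 0.18) and 0.16 (SE 0.18) did not pass (adjusted p = 0.25 and 0.616).

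Ptprc, Cd37 and Itgam are surface proteins of white blood cells or their subsets. Ptprc, the phosphatase CD45 that marks nearly all white blood cells, ran from 352 to 659 in 2 d sham and from 816 to 1274 in 2 d IR hearts and passed at 2 d (0.96, SE 0.20, adjusted p = 0.0285). At 7 d its sham arrays lay at 638 to 809 and its IR arrays at 904 to 1312, and it did not pass (0.43, SE 0.20, adjusted p = 0.179). A second Ptprc probe set had 0.83 (adjusted p = 0.0691) and 0.69 (adjusted p = 0.0682). Cd37, a tetraspanin strongest on B cells, had 0.49 (SE 0.22) and 0.47 (SE 0.22) and passed in the average alone (0.48, adjusted p = 0.0402), a call held in 3 of 12 fits that left out an array and lost with median centring and quantile normalization (highest adjusted p = 0.219). Itgam, the alpha chain of complement receptor 3 and a marker of monocytes and neutrophils, was above the brightness threshold on 3 arrays only, the least that allowed a test. Its signals were 385, 91.0 and 365 in 2 d sham, 1099.5, 94.5 and 203 in 2 d IR, 422, 105 and 70.2 in 7 d sham and 707, 737 and 224 in 7 d IR hearts. They scattered within every group, and the change of 0.23 (SE 0.51) at 2 d was -0.42 without replicate 69; that of 0.95 (SE 0.51) at 7 d did not pass (adjusted p = 0.249).

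Cd48 and Cd4 were called at 7 d and not at 2 d. Cd48, a lipid-anchored protein of the signalling lymphocyte family, had 4552, 3746 and 3382 in 2 d sham, 5114, 4361 and 5558 in 2 d IR, 5366, 3417 and 4170.0 in 7 d sham and 7215, 6595 and 6953 in 7 d IR hearts. Its groups were apart at 7 d, with a change of 0.68 (SE 0.16, adjusted p = 0.0159), and overlapped at 2 d (0.35, SE 0.16, adjusted p = 0.211). Cd4, which in the rat is carried by helper T cells and also by macrophages, had 786, 565 and 815 in 2 d sham, 923, 896 and 636 in 2 d IR, 1019, 942 and 785 in 7 d sham and 1310.1, 2264 and 1529.7 in 7 d IR hearts. The 7 d IR arrays were above all 9 others. Its change was 0.14 (SE 0.19, adjusted p = 0.727) at 2 d and 0.75 (SE 0.19, adjusted p = 0.0234) at 7 d. Of the T cell receptor chains, Cd3d and Cd3e were above the brightness threshold on 0 arrays, and Cd3g had changes of 0.03 and 0.20 that did not pass (adjusted p = 0.958 and 0.508).

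Among the signalling and cytoskeletal proteins, Plek, a substrate of protein kinase C in platelets and white blood cells, changed most at 2 d. Its signals were 315, 158 and 44.7 in 2 d sham, 1759, 619.6 and 936 in 2 d IR, 641, 612 and 125 in 7 d sham and 1503, 968 and 1033 in 7 d IR hearts. The groups did not overlap; it passed at 2 d (1.79, SE 0.38, adjusted p = 0.0308) and not at 7 d (1.16, SE 0.38, adjusted p = 0.0627). Lcp2, the scaffold SLP-76 that links receptor-bound kinases to phospholipase C, had 64.9, 217 and 172 in 2 d sham, 688, 441 and 538 in 2 d IR, 316, 321 and 234 in 7 d sham and 560.1, 835 and 571 in 7 d IR hearts. It rose by 1.13 (SE 0.23, adjusted p = 0.0285) and 0.80 (SE 0.23, adjusted p = 0.0401), with no overlap on either day. All sham signals of Lcp2 were below the brightness threshold, so that it was tested only because of its IR arrays, where it is high. A second, dimmer Lcp2 probe set had 0.98 (adjusted p = 0.0634) and 0.51 (adjusted p = 0.234). Aif1, the calcium-binding protein IBA1 of macrophages, had 746, 404 and 697 in 2 d sham, 2315, 852 and 1568 in 2 d IR, 1092, 833 and 544 in 7 d sham and 1811, 2295 and 1396 in 7 d IR hearts. Its arrays were apart on both days, with 1.07 (SE 0.29, adjusted p = 0.0614) at 2 d and 1.01 (SE 0.29, adjusted p = 0.0369) at 7 d. The other Aif1 probe set did not show this, at -0.01 and -0.20 (adjusted p = 0.989 and 0.574), so that the direction for Aif1 depends on the probe set.

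Coro1a, an actin regulator of white blood cells, had the lowest unadjusted p in the comparison of both days' effects and is given for that reason, after its values were seen. Its signals were 642, 785 and 952 in 2 d sham and 2569, 1732 and 1633 in 2 d IR hearts, against 1172, 1037 and 912 in 7 d sham and 1408, 1446 and 754 in 7 d IR hearts. The 2 d groups were well apart and the 7 d groups overlapped. Coro1a rose at 2 d by 1.12 (SE 0.21, adjusted p = 0.0223) and had 0.14 (SE 0.21, adjusted p = 0.714) at 7 d. Arhgdib also passed at 2 d (0.66, SE 0.15, adjusted p = 0.0351) and not at 7 d (0.23, SE 0.15, adjusted p = 0.325). The GTPase Rac2, which serves actin and the oxidase, had 0.91 (SE 0.24, adjusted p = 0.0527) and 0.45 (SE 0.24, adjusted p = 0.232). Lcp1, the actin bundler L-plastin, had 0.79 and 0.66, the Src family kinase Lyn 0.65 and 0.49, and Vav1, an exchange factor for Rac, 0.48 and 0.39; none of the 3 passed on either day. These 3 and Rac2 passed in the average of both days, at 0.73 for Lcp1, 0.57 for Lyn, 0.43 for Vav1 and 0.68 for Rac2. Vav1 held that call in 4 of 12 fits that left out an array and lost it with median centring, and Lyn lost it without replicate 69; Lcp1 and Rac2 held it in all 12 such fits. The second Lyn probe set, with 0.25 and 0.19, missed the threshold. Ptpn6, the phosphatase SHP-1 that opposes these kinases, was the 1 of the 10 not to pass in the average. Its signals were 329, 513 and 649.5 in 2 d sham, 1039.8, 505 and 876 in 2 d IR, 590.4, 608 and 743 in 7 d sham and 1062, 773 and 349.9 in 7 d IR hearts. They overlapped on both days, with changes of 0.52 (SE 0.28, adjusted p = 0.311) and 0.05 (SE 0.28, adjusted p = 0.919).

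The measured subunits of the NADPH oxidase did not share a course. Cyba, the small membrane subunit, had 2110.2, 2500.3 and 2556 in 2 d sham, 6411, 3960.3 and 4543 in 2 d IR, 3334, 3725 and 2091 in 7 d sham and 4649.7, 5415 and 4006 in 7 d IR hearts. Its groups were apart on both days, and it passed at 2 d (0.98, SE 0.20, adjusted p = 0.0285) and not at 7 d (0.62, SE 0.20, adjusted p = 0.0623). Cybb, the catalytic membrane subunit that pairs with it, had 876, 640.5 and 681 in 2 d sham, 1105, 905 and 854 in 2 d IR, 957, 756 and 608 in 7 d sham and 1005, 1134 and 790.2 in 7 d IR hearts. These overlapped, with 0.31 (SE 0.17, adjusted p = 0.316) and 0.28 (SE 0.17, adjusted p = 0.315). Ncf1, the cytosolic organizer of the complex, had 1464, 1159 and 1264 in 2 d sham, 1064, 1091 and 847 in 2 d IR, 1177, 1022 and 1221 in 7 d sham and 881, 1379 and 1164 in 7 d IR hearts. At 2 d all its IR arrays were below all its sham arrays, the reverse of Cyba, but the change of -0.32 (SE 0.16) did not pass (adjusted p = 0.253), nor did that of -0.01 (SE 0.16) at 7 d (adjusted p = 0.965). The differences between the subunits were not tested. A second Cyba probe set was too dim to test.

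Of the lysosomal proteins and enzymes, Lyz2, Laptm5 and Alox5ap rose on both days. Lyz2, which encodes lysozyme and is abundant in macrophages and neutrophils, had 17121, 20389.9 and 27452 in 2 d sham, 42059.6, 39503 and 33233 in 2 d IR, 25413, 28678 and 16914 in 7 d sham and 38534, 40441 and 38074 in 7 d IR hearts. It rose by 0.84 (SE 0.18, adjusted p = 0.0335) and 0.75 (SE 0.18, adjusted p = 0.0197). Laptm5, a lysosomal membrane protein of blood cells, rose by 0.93 (SE 0.19, adjusted p = 0.0285) and 0.79 (SE 0.19, adjusted p = 0.0196), and its 7 d IR arrays, at 3161 to 3398, were all above its 7 d sham arrays, at 1607 to 1957. Alox5ap, which hands arachidonic acid to the lipoxygenase of leukotriene synthesis, rose by 0.76 (SE 0.17, adjusted p = 0.0383) and 0.56 (SE 0.17, adjusted p = 0.0479). Its 7 d call held in 2 of 12 fits that left out an array and was lost with median centring and quantile normalization, while its call in the average of both days held in all 12. Cd68, the lysosomal glycoprotein used to stain macrophages, had 1435, 1985 and 3482 in 2 d sham, 7987, 2450.2 and 4778 in 2 d IR, 2021, 2087 and 988 in 7 d sham and 2672, 4228 and 3765 in 7 d IR hearts. The spread at 2 d was wide and the groups overlapped there. Its changes of 1.01 (SE 0.37) and 1.02 (SE 0.37) were as large as those of called genes but did not pass on either day (adjusted p = 0.136 and 0.0872), and they passed in the average (1.02, adjusted p = 0.0134).

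Across the days, 11 genes were called at both, namely Cd14, Cd53, Lilrb4, Clec4a3, Csf1r, Fcer1g, Tyrobp, Lcp2, Laptm5, Lyz2 and Alox5ap. Cd300c2, Ptprc, Plek, Coro1a, Arhgdib and Cyba were the 6 called at 2 d and not at 7 d, and Cd48, Cd4 and Aif1 the 3 called at 7 d and not at 2 d. Over all probe sets 1.88% rose at 2 d and 6.22% at 7 d, and the share called on both days was not counted. The change was larger at 2 d for 26 of the 32, including all 10 signalling genes, and larger at 7 d for 6. Over all probe sets the 7 d change was above the 2 d change for 48.2%. Without 2 d IR replicate 69 the counts of the 32 genes were 18 and 14, with a median difference of -0.04 in place of -0.18. None of this passed as a difference between the days. In the comparison of the IR effects, 0 of the 32 genes were called in limma, where 0.0095% of all probe sets were, and 4 had an unadjusted p under 0.05. That held for 752 of the 10527 probe sets. The 7 d effect minus the 2 d effect was -1.19 (SE 0.47) for Lilrb4, -0.98 (SE 0.30) for Coro1a, -0.68 (SE 0.30) for Cd53 and 0.60 (SE 0.27) for Cd4, with adjusted p of 0.593, 0.542, 0.642 and 0.669. Between the sham groups 0 of the 32 were called in limma (0.076% of all probe sets were), and 6 had an unadjusted p under 0.05. Over all 10527 probe sets 992 had such a p. The mean was higher in 7 d than in 2 d sham hearts for 28 of the 32, against 50.4% of all probe sets, with a median difference of 0.30. Between the IR groups the median difference was 0.01 and 18 genes had the higher mean at 7 d, but single arrays set this count: it was 28 without 2 d IR replicate 69 (median 0.13) and 11 without replicate 73 (median -0.09). Cd4 was the 1 gene called there (0.88, SE 0.19, adjusted p = 0.0182), where 3.45% of all probe sets were. It lost that call without 7 d IR replicate 47 (0.68, adjusted p = 0.0892) or without 2 d IR replicate 76 (0.75, adjusted p = 0.0917). The count became 2 without 7 d sham replicate 80, where 3.38% of all probe sets were called. Lilrb4 was lower at 7 d than at 2 d among IR hearts by -0.96 (SE 0.33), which did not pass (adjusted p = 0.147).

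**Figure D4:**
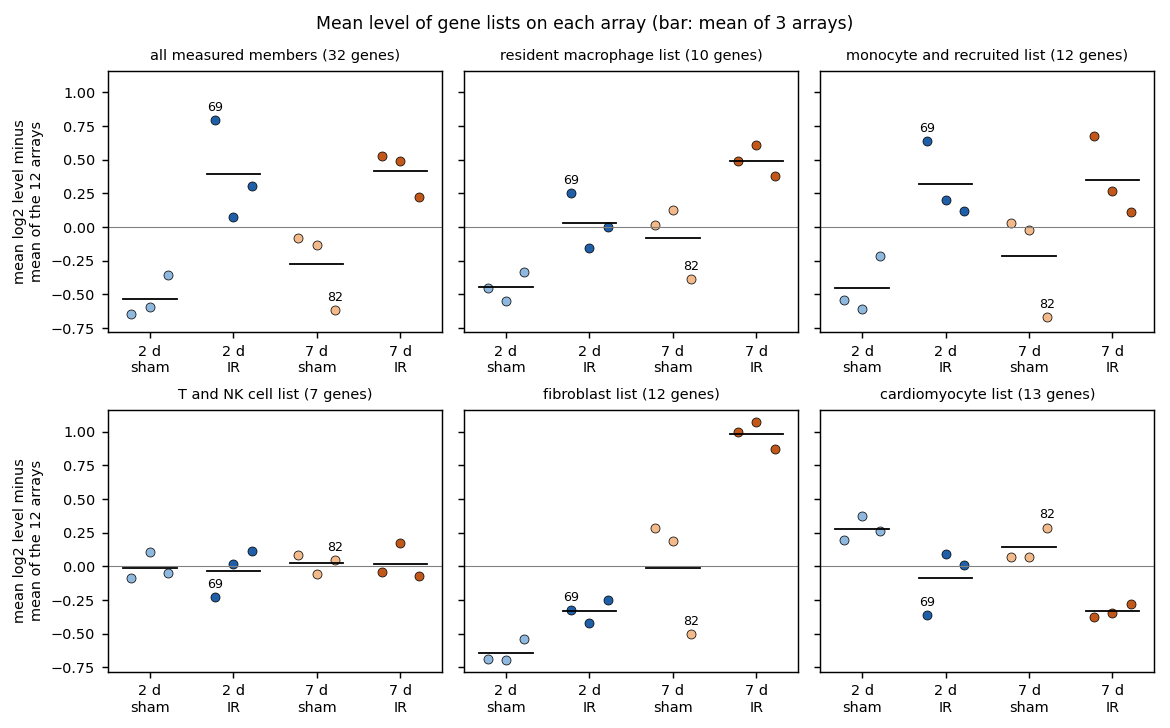
Mean log2 level of the tested genes of 6 lists on each of the 12 arrays, relative to the mean over the arrays (vertical axis), with bars at the group means; replicates 69 and 82 are labelled. Within their groups, replicate 69 is highest and replicate 82 lowest for the 32 genes and for the resident and recruited lists. For the cardiomyocyte list this order is reversed, and the fibroblast list is also lowest of its group on replicate 82. The T and NK cell list is flat, and the fibroblast list is highest in the 7 d IR hearts.

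Markers of resident macrophages were set beside those of monocytes and recruited macrophages. Cd163 and Mrc1, the resident markers among the 41 genes, were not analysed here, so the resident side rests on 10 of 18 listed genes that are outside the 41, and the recruited side on 12 of 22, of which Itgam, Cd14, Lyz2 and Cd48 are among the 32. In the average of both days 5 of 10 resident genes and 7 of 12 recruited genes rose, where 12.4% of all probe sets rose. The median changes were 0.63 and 0.66. With an array left out the counts were 5 to 7 and 6 to 8. Of the 7 recruited genes, Cd14, Cd48 and Lyz2 are among the 32. Of the resident list 1 gene rose at 2 d and 1 at 7 d, with medians of 0.55 and 0.65, and unadjusted p was under 0.05 for 5 and 8 of the 10. Of the recruited list 5 rose at 2 d and 3 at 7 d, with medians of 0.74 and 0.54, and unadjusted p was under 0.05 for 8 and 4 of the 12. Among the 5 were Cd14 and Lyz2, and the 3 at 7 d were Cd14, Cd48 and Lyz2, all among the 32. Over all probe sets 1.88% rose at 2 d and 6.22% at 7 d. Unadjusted p in limma was under 0.05 for 2259 and 2950 of the 10527. Per array, the resident mean lay 0.70, 0.29 and 0.44 above the sham mean of the day at 2 d and 0.58, 0.69 and 0.46 at 7 d, while the recruited mean lay at 1.09, 0.66 and 0.57 and then at 0.89, 0.49 and 0.33. The sham arrays of 7 d ran from -0.30 to 0.21 for the resident and from -0.45 to 0.25 for the recruited list. The difference between the lists was not tested. Without 2 d IR replicate 69, or 2 d sham replicate 71 or 72, 0 genes of either list were called at 2 d; without 2 d IR replicate 73, 3 of each were. Without 7 d IR replicate 44 or 7 d sham replicate 82, 0 genes of either list were called at 7 d. Over all probe sets, 0.019% were called at 2 d without replicate 69, 71 or 72. At 7 d 4.50% were without 44 and 1.66% without 82.

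The resident gene called at 2 d was Pf4, which encodes platelet factor 4 and is also a platelet gene. Its signals were 2977, 2494 and 2667 in 2 d sham and 6997, 4412 and 4603 in 2 d IR hearts (0.90, adjusted p = 0.0274). The one called at 7 d was Maf, a transcription factor of tissue macrophages, with 1806, 1615 and 771 in sham and 2661, 2419 and 2279.8 in IR hearts (0.80, adjusted p = 0.0467). Pf4 lost its call without replicate 69, 71, 72 or 74, and Maf without any of 8 arrays, 7 d sham replicate 82 among them. Folr2 and Lyve1, surface markers of resident cardiac macrophages, had 0.77 and 0.76 at 2 d and 0.61 and 0.75 at 7 d; they did not pass on either day, and they passed in the average of both days (adjusted p = 0.00548 and 0.0107). Igf1, a growth factor of macrophages and fibroblasts, was higher in 7 d than in 2 d IR hearts by 1.58 (adjusted p = 0.00235). It also had 0.98 between the sham groups of these days (adjusted p = 0.193), and against sham it had 0.14 at 2 d and 0.74 at 7 d, neither called (adjusted p = 0.798 and 0.0641). Of the recruited list, 3 genes outside the 32 rose at 2 d. They were Arg1, the arginase of wound macrophages, with 262, 404 and 422 in sham and 1718, 1127 and 877 in IR hearts (1.34, adjusted p = 0.0269), Fcnb, a ficolin of monocytes and neutrophils (1.33, adjusted p = 0.0436), and Plac8, high in blood monocytes (1.20, adjusted p = 0.0436). The 3 had 0.46, 0.35 and 0.71 at 7 d and did not pass. Ccr2, the chemokine receptor that brings monocytes out of the marrow, had 0.59 at 2 d (adjusted p = 0.161) and 0.08 at 7 d (adjusted p = 0.847).

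Markers of other cells moved to differing extents beside the 32 genes, and their part in the results was not tested. Over all probe sets 1.88% rose and 0.589% fell at 2 d, and 6.22% rose and 5.85% fell at 7 d. Unadjusted p in limma was under 0.05 for 2259 of the 10527 at 2 d and 2950 at 7 d. Of 18 neutrophil genes, 4 were bright enough to test, and Cxcr1, Cxcr2, Mmp8, Mmp9 and Padi4 were not. S100a8, a calcium-binding protein of neutrophils and monocytes, had signals of 326, 215 and 438 in 2 d sham, 998, 1325 and 672 in 2 d IR, 1119, 2733 and 447 in 7 d sham and 5882, 3564 and 2279 in 7 d IR hearts, and passed at 7 d (1.51, adjusted p = 0.0354) but not at 2 d (1.18, adjusted p = 0.132). It lost that call without 7 d IR replicate 44 or 47 or 7 d sham replicate 80 or 82. In the average of both days S100a8 and S100a9 rose, 2 of the 4 tested, where 12.4% of all probe sets rose. Both kept this call whichever array was left out, and without replicates 69 and 82 together. The neutrophil mean ran from 0.69 to 1.34 above sham at 2 d and from 0.04 to 1.65 at 7 d, with 7 d sham arrays between -1.03 and 0.92. Of 21 T and NK cell genes 7 were tested and 0 passed on either day in limma, with 0 at an unadjusted p under 0.05; their mean ran from -0.22 to 0.12 at 2 d and from -0.09 to 0.15 at 7 d. The 1 B cell gene on the array, Cd79b, was too dim to test, as were 8 of 10 mast cell genes, and the 3 red blood cell genes tested did not pass. Fibroblast genes, tested for 12 of 12, had 0 called at 2 d (4 at an unadjusted p under 0.05 in limma) and 9 higher at 7 d; their mean lay at 0.22 to 0.39 at 2 d and at 0.88 to 1.08 at 7 d, with -0.49 on 7 d sham replicate 82, and the count at 7 d was 3 without that array and 4 without 7 d IR replicate 44 or 47. Of 13 cardiomyocyte genes 12 fell in the average of both days, where 10.5% of all probe sets fell; the count was 9 to 12 with an array left out and 7 without replicates 69 and 82. On single days 1 was lower at 2 d, Tnni3, and 7 at 7 d, and all 13 changes were below 0 on each day; Tnni3 lost its 2 d call without 2 d IR replicate 69, among others, and the count at 7 d was 1 without 7 d sham replicate 82, 3 without 7 d IR replicate 44 or 47 and 4 without 7 d sham replicate 81. The cardiomyocyte mean lay at -0.64 to -0.19 at 2 d and at -0.52 to -0.43 at 7 d. Endothelial genes stayed near sham, with a mean of 0.03 to 0.08 at 2 d and 0.13 to 0.17 at 7 d. On single days Esam, a junction protein, was the 1 gene of 10 called (0.32 at 7 d, adjusted p = 0.044), a call lost without 7 d sham replicate 82, among others. In the average of both days Eng and Esam rose, 2 of the 10, and the count was 0 to 2 with an array left out. In the same average 8 of 12 fibroblast genes rose, where 12.4% of all probe sets rose.

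Other genes of the same pathways were tested from longer lists. Over all probe sets 1.88% rose and 0.589% fell at 2 d, and 6.22% rose and 5.85% fell at 7 d. In the average of both days 12.4% rose and 10.5% fell. Unadjusted p in limma was under 0.05 for 2259 of the 10527 at 2 d. Of 18 further genes of Fc receptor and ITAM signalling, 8 rose and 1 fell in the average of both days, among them Skap2, an adaptor of white blood cells (0.59, adjusted p = 0.00509), and Sirpa, an inhibitory receptor of macrophages (0.46, adjusted p = 0.0139). The 8 became 4 when replicate 44, 76 or 72 was left out, 5 for 47, 69, 82 or 71, and 3 for 69 and 82 together. On single days fewer were called. At 2 d 1 rose, the Src family kinase Fgr, from 325, 505 and 712 in sham to 1686, 1272 and 959.6 in IR hearts (1.09, adjusted p = 0.0263). At 7 d 1 rose, the neonatal Fc receptor Fcgrt (0.77, adjusted p = 0.0136), and 1 fell, the adaptor Card9 (-0.94, adjusted p = 0.044). For 18 genes, 1 each way is near the shares over all probe sets. Syk, the kinase that docks on Fcer1g and Tyrobp, had 0.17 (adjusted p = 0.647) and 0.18 (adjusted p = 0.579). Fgr lost its call without 2 d IR replicate 69 or 2 d sham replicate 71 or 72, Fcgrt without 7 d IR replicate 47 or 7 d sham replicate 82, and Card9 without either of these or any of 6 other arrays. Of 7 oxidase partners and redox enzymes tested 0 were called at 2 d (3 at an unadjusted p under 0.05 in limma, all lower), and 1 fell at 7 d, the cytosolic superoxide dismutase Sod1 (-0.58, adjusted p = 0.0124), a call lost without replicate 82. Rac1, the widely expressed relative of Rac2, had 0.29 and 0.30 (adjusted p = 0.258 and 0.199), and Nox1, Nox4 and Duox2 were too dim to test. Of 9 myeloid transcription factors 0 were called at 2 d in limma, with 1 at an unadjusted p under 0.05, and Maf at 7 d; Irf8, which directs monocyte fate, had 0.23 and 0.33 (adjusted p = 0.458 and 0.22). Csf1, the ligand of Csf1r, had -0.08 and -0.48 (adjusted p = 0.849 and 0.0805) while its receptor rose on both days.

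Of 6 further genes of leukotriene synthesis tested, 1 rose on each day, where 1.88% of all probe sets rose at 2 d and 6.22% at 7 d. Lta4h, the hydrolase that makes leukotriene B4 downstream of the step served by Alox5ap, had 1579.6, 1573 and 1505 in 2 d sham, 2893, 2214 and 2472 in 2 d IR, 1706, 1469 and 1471 in 7 d sham and 2845, 2492 and 2488 in 7 d IR hearts. The groups were wide apart on both days, and it rose by 0.63 (adjusted p = 0.0246) and 0.69 (adjusted p = 0.00773). At 7 d it kept its call whichever array was left out, and at 2 d it lost it without replicate 69, 71, 72 or 74. Alox5, the lipoxygenase itself, was too dim to test, and Ltc4s, which makes the cysteinyl leukotrienes, had 0.11 and -0.04 (adjusted p = 0.733 and 0.891).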

How the data were processed

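The authors deposited 1 intensity for each probe set and array, on a linear scale. MAS5, which summarises matched and mismatched probes, is named in the submitters' processing notes with no version, and no detection calls were used. The deposited intensities had been scaled per array: the mean after leaving out 2% of probe sets at each end was 1500.4 to 1500.5 on every array. The number of arrays limits the precision, since arrays have no read depth.

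The array held 15923 probe sets. After removal of 57 controls, the 10527 of 15866 that exceeded the 40th percentile of their array (a signal of 448 to 515) on 3 or more arrays were tested. Values were taken as log2(signal + 195), 195 being the median over arrays of the 20th percentile. The 4 group means were estimated together from 12 arrays (limma 3.58.1, R 4.3.3, eBayes with an intensity trend), and two-sided p-values were Benjamini-Hochberg adjusted over the 10527. The 6 comparisons were IR against sham on each day, the difference and the average of these effects, and 7 d against 2 d among sham and among IR hearts. The fit was tested on simulated data with known changes. Both IR comparisons enter their average and difference, so these are not independent of them.

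Groups come from the sample titles, as the written design lists 7 d sham in 2 places and leaves out 2 d sham. The design gives 3 rats a group. Groups share no replicate numbers. In the 7 d IR group the numbers (44 to 48) lie apart from the others (69 to 82); the meaning of the numbers is not stated, so that a batch and that group cannot be told apart. Gene symbols come from GEO's platform annotation; all 32 genes were found in the RefSeq table of assembly GRCr8 under the same symbol, and 20 had a promoter there.

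The genes and all lists were chosen with earlier results of these data known. Values of each array are given for the 8 called genes with the largest change per IR comparison, genes called between days, genes of each role that passed nowhere, and the oxidase subunits; from other lists, mainly called genes. Genes outside this rule (Csf1r, Cd48, Lyz2, Coro1a and Cd68, and among others Syk, Irf8, Csf1, Ccr2, Folr2, Lyve1 and Lta4h) were chosen after their values were seen. Fcgr2b, among the 8 in the average of both days, is given as ranges. Alternatives were other constants, no filter, other scalings, no trend, only the groups compared, other probe sets, other sham groups, and each array left out; leaving arrays out of the marker lists was added after seeing the data.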

Additional observations from a re-analysis of the deposited data

How the results depend on the processing

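No paired analysis was possible because the groups share no replicate numbers. For IR against sham at 2 d, the 17 genes called became 7 without the filter on dim probe sets, 8 without the intensity trend, 9 without replicates 69 and 82 together and 5 against 7 d sham hearts, and ranged from 1 to 22 with an array left out. The share of all probe sets called, at first 2.47%, became 0.485%, 0.646%, 0.665% and 0.712% in the same order. It ranged from 0.019% to 4.89% with an array left out. For IR against sham at 7 d, the 14 called became 6 without replicates 69 and 82, 24 against 2 d sham hearts and 23 against sham of both days, and ranged from 0 to 18 with an array left out. The share of all probe sets, at first 12.1%, became 5.14%, 23.8% and 24.2%, and ranged from 1.66% to 13.9%. Between sham groups the 0 called became 1 (Cd53) without replicates 69 and 82, while the share of all probe sets went from 0.076% to 0.788%. Between IR groups the 1 called became 2 with 4 times the constant, 2 with only the groups compared and 3 without replicates 69 and 82, and ranged from 0 to 2 with an array left out. The other constants and scalings kept the counts of both days within 13 to 17. The average of both days stayed within 18 to 27, and 22 of its 27 genes passed with any array left out; the other 5 were Fcgr2b, Cd4, Cd37, Vav1 and Lyn. Signs turned in few fits. At 2 d, Itgam ranged from -0.42 to 0.66 with an array left out and had -0.42 without replicates 69 and 82, while Fcgr3a, Cd4 and Cd37 had -0.090, -0.14 and -0.041 against 7 d sham hearts. Aif1 on its other probe set had -0.0083 at 2 d, -0.20 at 7 d and -0.10 in the average. At 7 d, Ptpn6 ranged from -0.21 to 0.39 with an array left out and Ncf1 from -0.14 to 0.13, and Ncf1 had 0.031 without replicates 69 and 82. The cause of these shifts was not tested.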

Other observations

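The neutrophil and monocyte genes S100a8 and S100a9, whose products pair as calprotectin, differed between the days by more than any of the 32 genes did, in both the sham and the IR hearts. S100a9 had signals of 1218, 1249.7 and 2225 in 2 d sham, 5330.2, 4215 and 2912 in 2 d IR, 7699, 12064 and 4053 in 7 d sham and 17896, 10467 and 9268 in 7 d IR hearts. All 7 d sham arrays lay above all 2 d sham arrays, by 2.13 on the log2 scale (SE 0.34, adjusted p = 0.033 in limma), and S100a9 was among 8 probe sets called there. That call was lost when any 1 of 7 d sham replicates 80 and 81, 2 d sham replicates 71 and 72, 7 d IR replicate 47 and 2 d IR replicate 73 was left out. Among IR hearts S100a9 was higher at 7 d by 1.53 (SE 0.34, adjusted p = 0.0233) and S100a8 by 1.72 (SE 0.43, adjusted p = 0.0388), whereas the 1.40 (SE 0.43) of S100a8 among sham hearts did not pass (adjusted p = 0.289). Both calls among IR hearts were lost without replicate 44, 47, 73 or 76, and that of S100a8 also without 69, 71, 74 or 80.

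Other myeloid genes outside the 32 gave few calls between the days. Klf4, a factor of monocyte differentiation, was higher in 7 d than in 2 d IR hearts by 0.62 (SE 0.15, adjusted p = 0.0287), a call lost without replicate 47, 48 or 73. Prkcb, a protein kinase C isoform of white blood cells, was higher by 0.71 (SE 0.18, adjusted p = 0.0415), a call lost without any of 8 arrays. Tgfb1, a growth factor that macrophages release, had 0.98 (SE 0.26, adjusted p = 0.0603) against sham at 2 d and 0.56 (SE 0.26, adjusted p = 0.177) at 7 d, and passed in the average of both days (0.77, adjusted p = 0.00962). Of the mast cell genes tested, Cpa3 had -0.087 at 2 d and -0.33 at 7 d, Tpsb2 had 0.36 and -0.13, and neither passed.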
